A study of Mus musculus with 6 samples.

Results

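The data are RNA sequencing counts for 10 marker genes of the epithelial-mesenchymal transition (EMT) in mouse embryoid bodies made from induced pluripotent stem cells (iPSCs), with and without intermittent compressive force (ICF). The genes were chosen by name as EMT markers, with earlier results of these data known, and are 10 of the 50686 genes in the count tables. They comprise 3 epithelial genes (Cdh1, Epcam and Cldn6), 2 mesenchymal genes (Cdh2 and Vim) and 5 transcription factors that drive the transition (Snai1, Snai2, Zeb1, Zeb2 and Twist1). Each symbol matched 1 mouse Ensembl identifier, and all 10 genes were among the 16729 that passed the filter on low counts.

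The iPSCs had been reprogrammed from mouse gingival fibroblasts and were grown on SNL cells, a fibroblast feeder line that was removed by selective trypsin treatment. In both groups the embryoid bodies received retinoic acid, were plated on gelatin and were kept in serum-free medium during the experiment. The ICF group (3 samples) was compressed at 1.5 g per square centimetre and 0.23 Hz for 24 h, and the control group (3 samples) stayed unloaded. The labels number the samples as donors 1 to 3 within each group, called replicates here, and neither strain nor age is given in the sources used here.

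Each library held 28711166 to 34194413 counts on genes. ICF replicate 3 stood apart: 89.0% of its counts above 0 were multiples of 4, against 20.3% to 21.5% in the other libraries, and 9 of its 10 marker counts were such multiples. It had counts on 20802 genes, against 24340 to 24889 in the other libraries. The reason is not known, and its total may not equal its number of reads. In replicate 3 of both groups, 9.11% and 9.46% of the uniquely placed reads on genes or outside them lay outside annotated genes, against 6.26% to 6.81% elsewhere. RNA came from whole cultures, so fewer cells of a type and less RNA per cell cannot be told apart.

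In EMT, cells held together by E-cadherin and tight junctions loosen these contacts and take up N-cadherin and vimentin. Snail (Snai1), Slug (Snai2), Zeb1 and Zeb2 are zinc finger proteins that bind E-box sequences and repress the E-cadherin gene, and Twist1 is a basic helix-loop-helix factor that binds E-boxes too. Mouse pluripotent cells are epithelial in this sense, with high E-cadherin and EpCAM, and the transition runs naturally when the embryo forms mesoderm and neural crest.

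The E-box that Snail and Zeb proteins prefer reads CACCTG on one strand and CAGGTG on the other. It was searched in RefSeq promoter windows (build GRCm38.p6), which run from 250 bases before the start in RefSeq to 50 after it. Of the 10 genes, 6 had a window, and 3 of these (Epcam, Cldn6 and Snai1) held the motif, while the windows of Vim, Zeb2 and Twist1 did not. Zeb2 had 4 windows and the others 1 each. Windows of Cdh1, Cdh2, Snai2 and Zeb1 were not used here. Over all 32851 windows, 20.2% held it at least once and 2.88% at least 2 times, shares that count windows and not genes. The spellings are reverse complements, so a match to either on one strand is a match to the other on the opposite strand. The windows below belong to the epithelial genes that differed most between the groups and to the one factor that fell under pairing. They are written 5′ to 3′ with the motif in capitals.
Epcam, forward strand, chr17:87635729-87636028: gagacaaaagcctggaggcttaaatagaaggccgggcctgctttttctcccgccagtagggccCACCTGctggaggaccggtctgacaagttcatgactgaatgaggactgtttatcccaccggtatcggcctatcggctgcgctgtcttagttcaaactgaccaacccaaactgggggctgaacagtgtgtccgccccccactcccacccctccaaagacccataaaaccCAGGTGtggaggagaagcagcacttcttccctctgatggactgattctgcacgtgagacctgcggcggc
Cldn6, forward strand, chr17:23679115-23679414: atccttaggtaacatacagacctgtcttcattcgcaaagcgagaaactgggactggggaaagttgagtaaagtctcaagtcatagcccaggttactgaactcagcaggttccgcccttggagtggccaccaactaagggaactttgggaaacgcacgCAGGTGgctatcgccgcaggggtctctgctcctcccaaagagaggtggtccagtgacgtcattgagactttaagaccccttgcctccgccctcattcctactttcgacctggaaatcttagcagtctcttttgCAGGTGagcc
Snai1, forward strand, chr2:167537945-167538244: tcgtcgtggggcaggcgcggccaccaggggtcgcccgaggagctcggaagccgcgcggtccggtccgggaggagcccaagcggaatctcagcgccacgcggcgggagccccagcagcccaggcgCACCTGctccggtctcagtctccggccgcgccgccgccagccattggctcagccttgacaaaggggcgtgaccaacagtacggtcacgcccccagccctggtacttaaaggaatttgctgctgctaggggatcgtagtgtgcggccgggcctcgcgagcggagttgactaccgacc

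Counted from the RefSeq start, the motifs of Epcam lay 187 and 19 bases before it, those of Cldn6 93 bases before and 40 after it, and that of Snai1 126 bases before it. RefSeq and GENCODE give the same start for Epcam and Snai1, but the RefSeq start of Cldn6 (23679365) lies 116 bases after the GENCODE gene start. Counted from the GENCODE start, both Cldn6 motifs lay after it, by 23 and 156 bases. A match describes the letters only, and binding was not measured.

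Transcript levels separated the epithelial genes from all 5 factors. Levels between genes are given as CPM per kb, that is, counts scaled to library size with TMM factors (CPM) and divided by the length of all annotated exons. Epcam was highest with a median of 110.1 CPM per kb over the 6 samples (94.4 to 131.4), followed by Cdh1 with 69.5 (60.4 to 72.2). Cldn6 (median 41.0, 32.3 to 48.3) and Vim (median 36.6, 30.6 to 39.5) overlapped, so their order was not resolved.

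Among the factors, Snai1 had a median of 19.2 CPM per kb (13.4 to 27.4) and Twist1 of 7.41 (4.55 to 7.59). Zeb1 reached 2.32 (2.08 to 2.42), and Cdh2, at 1.07 (0.81 to 1.19), overlapped with Snai2, at 0.87 (0.77 to 1.17). Zeb2 was lowest with 0.18 CPM per kb (0.13 to 0.21). With the longest transcript as the length, Vim (59.3) came before Cldn6 (43.5), and the order was otherwise the same.

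**Figure D1:**
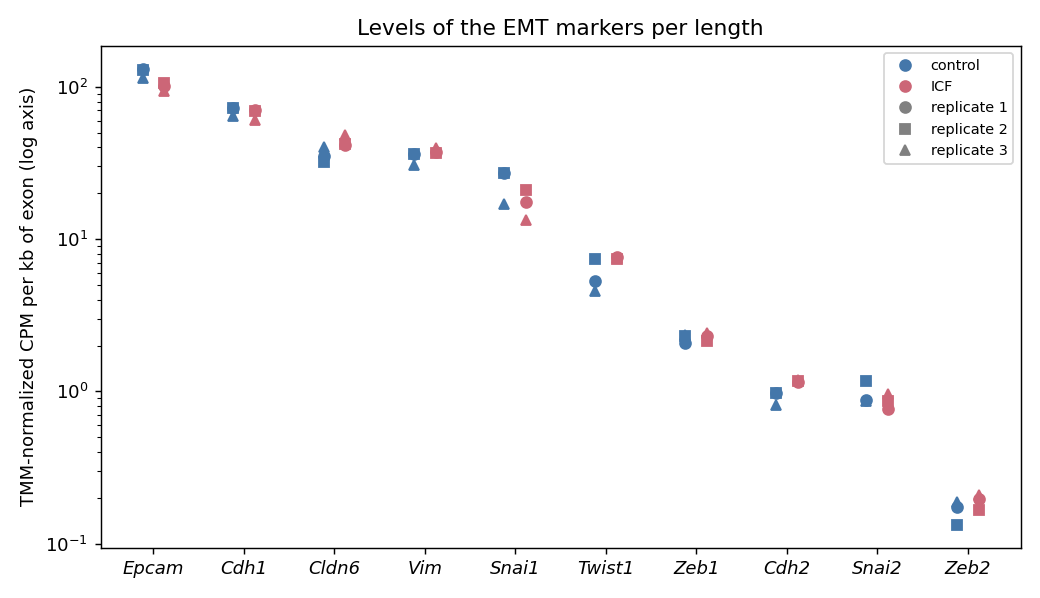
TMM-normalized CPM per kb of exon (log axis) of the 10 genes in each sample, with control in blue, ICF in red and the replicate given by the symbol. Epcam and Cdh1 lie above every other gene and Zeb2 lies below every other gene in all 6 samples, and the control and ICF samples of a gene lie close together on this scale.

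Of the epithelial genes, Epcam fell with ICF, whereas E-cadherin did not pass the test and Cldn6 rose in the paired fit. The values that follow for single genes are TMM-normalized CPM, which compare a gene between samples. Differences were tested with edgeR's quasi-likelihood test over all 16729 genes, at a Benjamini-Hochberg adjusted p under 0.05, and called means past this threshold. SE is the standard error of a log2 fold change.

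Epcam encodes an adhesion molecule of epithelia and pluripotent cells (ENSMUSG00000045394, chromosome 17 of GRCm38, 87635979 to 87651129). Its level was 288, 285 and 250.5 CPM in control replicates 1 to 3 and 221, 233 and 207 CPM in ICF replicates 1 to 3. Every ICF sample lay below every control sample. The mean went from 274.5 ± 20.9 (SD, n = 3) to 220.3 ± 13.0 (SD, n = 3), or by -0.32 on the log2 scale (SE 0.08, edgeR adjusted p = 0.038). With the replicate number as a block the adjusted p was 6.1e-06. Tests that left out 1 of the 6 samples gave log2 fold changes from -0.38 to -0.27, and 1 of these 6 edgeR tests passed, that without control replicate 3 (adjusted p from 0.015 to 0.17). Without ICF replicate 3 it was -0.27 (adjusted p = 0.063, edgeR), and without replicate 3 of both groups -0.34 (adjusted p = 3.3e-05).

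Cdh1 encodes E-cadherin, the adhesion protein of adherens junctions (ENSMUSG00000000303, chromosome 8, 106603351 to 106670246). It measured 330.2, 330.1 and 295 CPM in control samples and 320.5, 315 and 276 CPM with ICF. The groups overlapped, and the third replicate was the lowest sample of both. The log2 fold change was -0.07 (SE 0.09, edgeR adjusted p = 0.63), and the block by replicate gave an adjusted p of 0.31. The differences within pairs 1 to 3 were -0.04, -0.07 and -0.09 on the log2 scale, smaller than those of Epcam in the same pairs (-0.39, -0.29 and -0.27).

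Cldn6 encodes a claudin of embryonic epithelia, a strand-forming protein of tight junctions (ENSMUSG00000023906, chromosome 17, 23679249 to 23682446). Its level was 60.8, 55.5 and 69.6 CPM in control samples and 71.3, 72.2 and 83.1 CPM with ICF. Every ICF sample was above every control sample, although ICF replicate 1 exceeded control replicate 3 only narrowly. The log2 fold change of 0.29 (SE 0.12) did not pass without the block (adjusted p = 0.11, edgeR). With the replicate block it passed at an adjusted p of 0.00017. Without replicate 3 of both groups it passed too, at 0.30 (adjusted p = 0.00052, edgeR), and without control replicate 3 alone at 0.38 (adjusted p = 0.037).

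The mesenchymal genes were both higher in every ICF sample, by small amounts that did not pass the test without pairing. Groups that did not overlap, in either direction, were found for 31.4% of all genes tested. Cdh2 encodes N-cadherin, which replaces E-cadherin in mesenchymal and neural cells (ENSMUSG00000024304, chromosome 18, 16588877 to 16809246). It measured 7.84, 7.89 and 6.54 CPM in control samples and 9.30, 9.47 and 9.63 CPM with ICF. The 3 ICF samples lay close together above the control. The log2 fold change was 0.35 (SE 0.09, edgeR adjusted p = 0.099), and the block by replicate gave an adjusted p of 0.015. Within pairs 1 to 3 the difference was 0.25, 0.26 and 0.56 on the log2 scale. Without replicate 3 of both groups the log2 fold change was 0.26, with an adjusted p of 0.072 in edgeR and of 0.094 with the block.

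Vim encodes vimentin, an intermediate filament protein of mesenchymal cells that many cultured cells also make (ENSMUSG00000026728, chromosome 2, 13573927 to 13582826). It measured 171.7, 172.7 and 145 CPM in control samples and 177.5, 174.5 and 187.5 CPM with ICF. The groups did not overlap, but replicates 1 and 2 of both groups spanned only a narrow range. The log2 fold change was 0.14 (SE 0.09, edgeR adjusted p = 0.30), with an adjusted p of 0.052 with the block. Within pairs it was 0.05, 0.01 and 0.37, and without replicate 3 of both groups it was 0.03 (adjusted p = 0.66, edgeR).

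**Figure D2:**
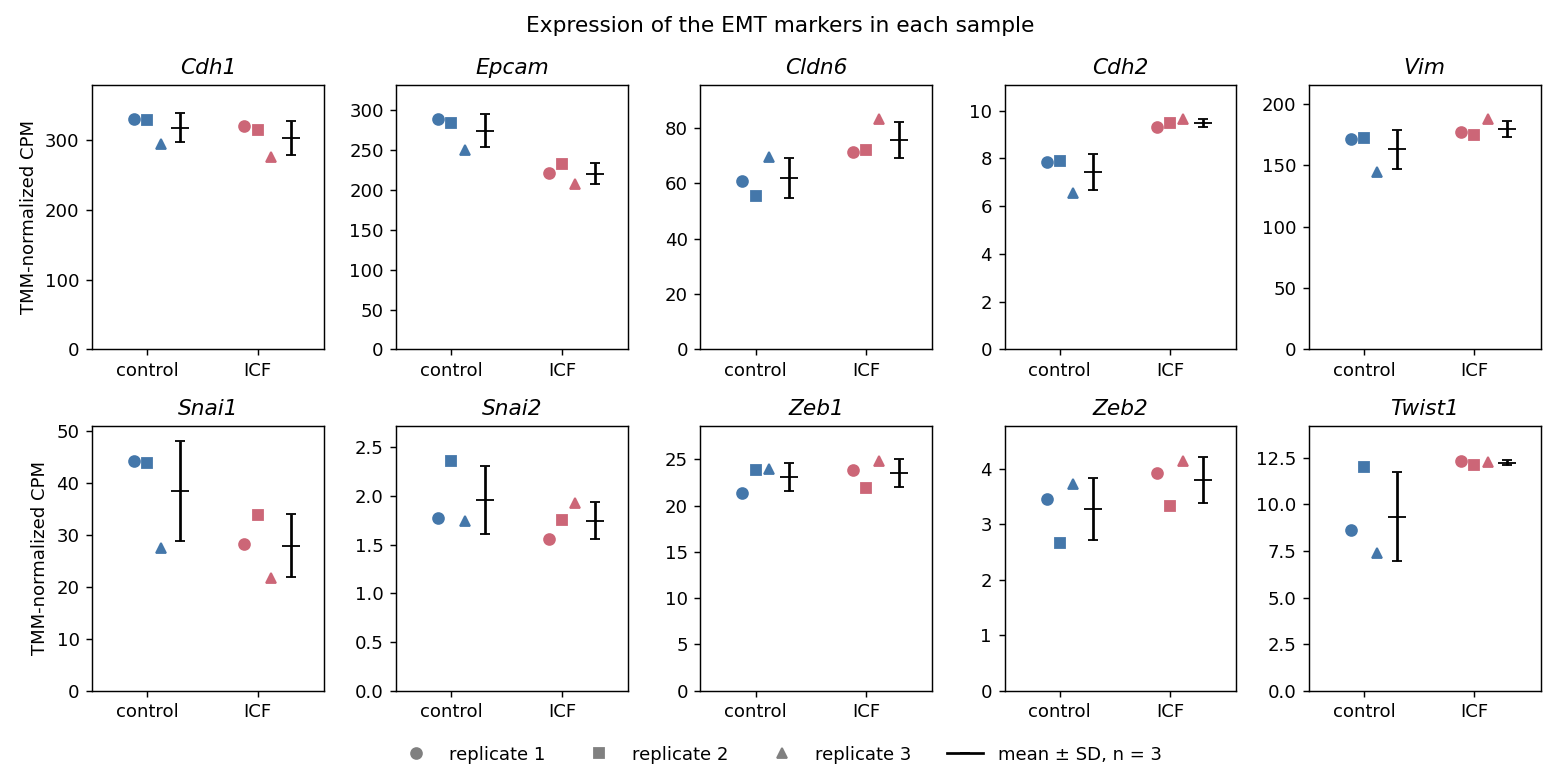
TMM-normalized CPM of each gene (linear axes from 0) in the 3 control samples (blue) and 3 ICF samples (red), with the mean ± SD in black and the replicate given by the symbol. The groups do not overlap for Epcam, Cldn6, Cdh2, Vim and Twist1, as for 31.4% of all genes tested. Replicate 3 is the lowest sample of its group for Cdh1, Epcam and Snai1.

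None of the 5 transcription factors was called without the block in edgeR. At an unadjusted p under 0.05 there were 2, 1 higher and 1 lower, and DESeq2 called 0. With the block, Snai1 fell and Twist1 rose, in opposite directions. Over all genes tested in edgeR, 7.85% were called without the block and 29.9% with it, and 25.6% had an unadjusted p under 0.05.

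Snai1, the gene of Snail (ENSMUSG00000042821, chromosome 2, 167538195 to 167542814), measured 44.3, 43.9 and 27.5 CPM in control samples and 28.3, 33.8 and 21.7 CPM with ICF. Control replicate 3 lay within the ICF range, yet in each pair the ICF sample was lower, by 0.65, 0.38 and 0.34 on the log2 scale. The log2 fold change was -0.46 (SE 0.29, edgeR adjusted p = 0.19). The block by replicate gave an adjusted p of 5.8e-06, and without replicate 3 of both groups it was 3.3e-05 at a log2 fold change of -0.51 (edgeR). Leaving out control replicate 3 alone gave -0.66 (adjusted p = 0.039, edgeR), the only one of the 6 such tests that passed.

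Twist1 (ENSMUSG00000035799, chromosome 12, 33957671 to 33959829) measured 8.62, 12.01 and 7.41 CPM in control samples and 12.4, 12.1 and 12.3 CPM with ICF. All ICF samples were higher, but control replicate 2 was nearly level with them. Its log2 fold change was 0.39 (SE 0.21, edgeR adjusted p = 0.18), and with the block the adjusted p was 0.0054. The pairs differed by 0.52, 0.01 and 0.73 on the log2 scale. Without replicate 3 of both groups it was 0.24 (adjusted p = 0.14 in edgeR and 0.067 with the block).

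Zeb1 (ENSMUSG00000024238, chromosome 18, 5591860 to 5775467) measured 21.3, 23.9 and 24.0 CPM in control samples and 23.8, 21.9 and 24.9 CPM with ICF. The groups overlapped, and the pairs differed in both directions. The log2 fold change was 0.03 (SE 0.08, edgeR adjusted p = 0.87). Zeb2 (ENSMUSG00000026872, chromosome 2, 44983632 to 45117395) was at 3.46, 2.65 and 3.72 CPM in control samples and 3.92, 3.33 and 4.14 CPM with ICF, with a log2 fold change of 0.21 (SE 0.18, edgeR adjusted p = 0.50). Each Zeb2 pair was higher with ICF, by 0.18, 0.33 and 0.15, but the groups overlapped and the block gave an adjusted p of 0.33. Other genes overlap exons of Zeb1 (Gm10125) and Zeb2 (Zeb2os) on the opposite strand, and these had at most 6 and 5 counts in any sample.

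Snai2, the gene of Slug (ENSMUSG00000022676, chromosome 16, 14705852 to 14709385), measured 1.78, 2.36 and 1.74 CPM in control samples and 1.56, 1.76 and 1.93 CPM with ICF. At 50 to 74 counts per sample its groups overlapped, and the log2 fold change was -0.17 (SE 0.17, edgeR adjusted p = 0.65).

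Over the 10 genes, edgeR without the block called 1 lower (Epcam) and 0 higher, whereas over all genes tested it called 7.85%, of which 3.47% were higher and 4.38% lower. At an unadjusted p under 0.05 there were 5 of the 10 genes, 3 of them higher, against 25.6% of all genes and 12.4% higher, and DESeq2 called Epcam alone. With the replicate block 5 of the 10 were called (Cldn6, Cdh2 and Twist1 higher, Epcam and Snai1 lower), against 29.9% of all genes. With the block and without replicate 3 of both groups, Epcam, Snai1 and Cldn6 were called. Groups that did not overlap were found for 5 of the 10, against 31.4% of all genes. For each of these 5 the exact two-sided permutation test gave p = 0.1, the smallest that 3 samples against 3 allow. The median log2 fold change was 0.08 over the 10 genes and 0.00 over all genes.

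**Figure D3:**
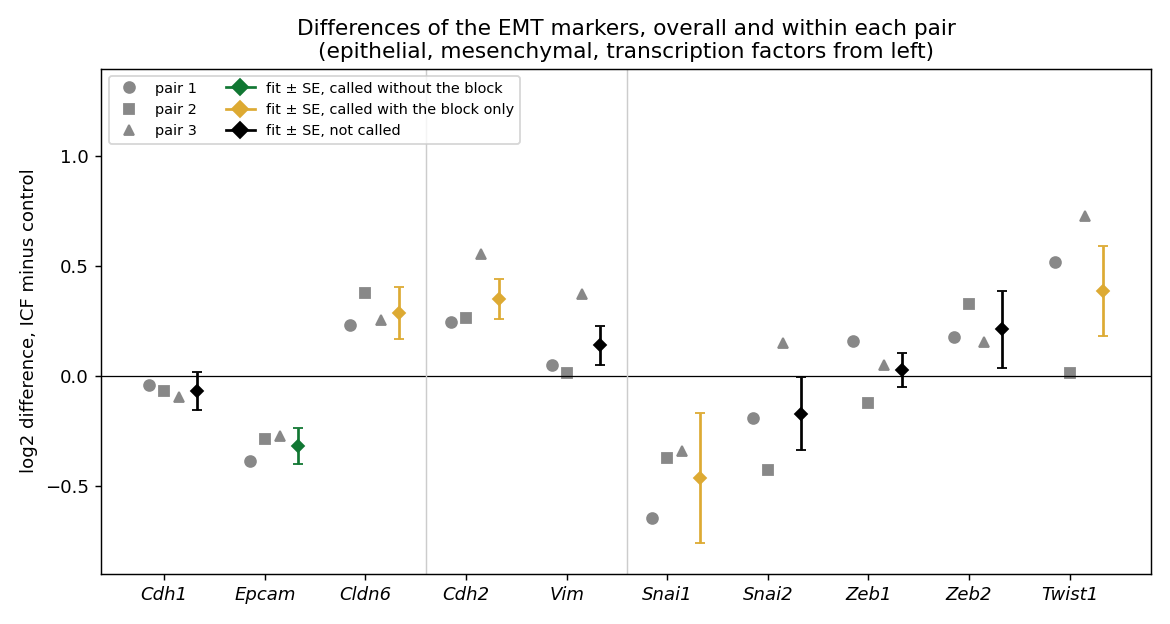
Log2 difference of each gene between ICF and control, with grey symbols for the 3 same-numbered pairs and a diamond for the fitted log2 fold change with its standard error from the unpaired spread between samples. Epcam (green) was called without the block, Cldn6, Cdh2, Snai1 and Twist1 (yellow) with it alone, and the pairs of Zeb1 and Snai2 lie on both sides of 0.

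Set side by side, the means of the epithelial and mesenchymal genes lay closer with ICF, as a description with no test. The epithelial mean overlapped between the groups, with Epcam and Cldn6 moving in opposite directions. Neither Cdh2 nor Vim was called without the block. The mean log2 CPM of the 3 epithelial genes was 7.49, 7.44 and 7.43 in control samples and 7.42, 7.45 and 7.39 with ICF. That of the 2 mesenchymal genes was 5.20, 5.21 and 4.95 in control samples and 5.35, 5.35 and 5.41 with ICF. The difference between them was thus 2.29, 2.23 and 2.49 in control samples and 2.08, 2.10 and 1.98 with ICF, and it narrowed most in replicate 3. The mean of the 5 factors was 3.13, 3.26 and 2.99 in control samples and 3.13, 3.14 and 3.14 with ICF.

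The CPM of Cdh1 was 42.1, 41.8 and 45.1 times that of Cdh2 in control samples and 34.5, 33.2 and 28.7 times with ICF, ratios that carry the different lengths of these genes. The fitted log2 fold changes were -0.07 for Cdh1 and 0.35 for Cdh2. Within the epithelial genes the ratio of Epcam to Cldn6 CPM was 4.74, 5.13 and 3.60 in control samples and 3.09, 3.23 and 2.49 with ICF. The epithelial genes therefore did not move as one group.

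The genes around these markers were read from the same fit, list by list, beside a median of 0.00 over all genes. For this and all later lists, the shares over all genes were 3.47% called higher and 4.38% lower without the block. They were 29.9% in either direction with the block and 25.6% at an unadjusted p under 0.05. No list was tested against these shares. In the tight junction and polarity list, 4 of 18 genes fell and 0 rose (1 rose at an unadjusted p under 0.05, and 0 with DESeq2), with a median log2 fold change of -0.14. With the block, 9 fell and 1 rose. The claudins Cldn3, Cldn4 and Cldn7 fell, in the opposite direction to Cldn6. Cldn3 went from 7.75 ± 0.44 to 4.28 ± 0.20 CPM (SD, n = 3), or -0.86 on the log2 scale (SE 0.06, edgeR adjusted p = 0.0050). Its call held in all 6 tests that left out a sample, whereas those of Cldn4 (-0.29) and Cldn7 (-0.45) held in 2 of 6. Llgl2, a polarity protein of the basolateral membrane, fell by 0.34 on the log2 scale, and its call held in 3 of the 6 tests.

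In the other adhesion lists, 2 of 9 cadherin partners fell. These were Nectin2, a nectin of adherens junctions (-0.38, SE 0.08), and Afdn, which links nectins to actin (-0.23, SE 0.04). With a sample left out, the call of Nectin2 held in 3 of 6 tests and that of Afdn in 0 of 6. The catenins that bind E-cadherin at the membrane had log2 fold changes of -0.01 for Ctnna1, 0.03 for Ctnnb1 and -0.08 for Ctnnd1 (adjusted p of 0.58 or more, edgeR), and were named after their values were seen. Of 12 desmosome and keratin genes, 1 fell, Pkp2, a plakophilin of desmosomes, from 55.2 ± 2.74 to 37.8 ± 3.23 CPM (SD, n = 3), and its call held in 6 of 6 tests with a sample left out. With the block 3 genes of this list rose and 2 fell. Those that rose included the desmosomal genes Dsp (0.51, adjusted p = 7.9e-08 with the block and 0.16 without) and Dsc2 (0.47, adjusted p = 4.9e-05 and 0.23), both named after their values were seen. The median of that list was 0.04, and that of the cadherin partners -0.01.

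Among 10 other cadherins tested, 1 rose, Cdh11, a cadherin of mesenchymal cells, from 5.74 ± 0.33 to 9.31 ± 1.00 CPM (SD, n = 3). On the log2 scale this was 0.70 (SE 0.10, edgeR adjusted p = 0.014), against 0.35 for Cdh2. The call of Cdh11 held in 3 of the 6 tests with a sample left out. The list had a median of 0.17, and with the block 4 of its genes rose and 0 fell.

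Of 21 mesenchymal structural genes, 2 rose and 1 fell, with a median of 0.07, and with the block 6 rose and 5 fell. Tnc, an extracellular matrix glycoprotein, rose by 0.63 on the log2 scale (SE 0.14), and Cd44, the hyaluronan receptor, by 0.54 (SE 0.17). With a sample left out, the call of Tnc held in 3 of 6 tests and that of Cd44 in 1 of 6. Loxl2, a lysyl oxidase-like enzyme that cross-links collagen, went from 102.5 ± 19.2 to 53.6 ± 4.38 CPM (SD, n = 3), or by -0.93 on the log2 scale (SE 0.18, edgeR adjusted p = 0.0048).

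Of 15 other EMT transcription factors, 1 rose, and with the block 2 rose and 1 fell. The one called without the block was Twist2, the relative of Twist1, at 0.85 on the log2 scale, which had a mean of 58.3 counts and is named although it falls under the count minimum for named genes. Its call held in 0 of the 6 tests with a sample left out. The most abundant of this list, Tcf3 and Sox4, had log2 fold changes of -0.03 and 0.19 and were not called without the block. With the block Sox4 was called higher (adjusted p = 0.0052, edgeR) and Tcf3 was not called. Among 12 genes of TGF-β ligands, receptors and Smad regulators, a pathway known to induce EMT, 1 fell and 0 rose (2 rose at an unadjusted p under 0.05, and 1 with DESeq2), and with the block 2 rose and 2 fell. The called gene was Skil, a repressor of Smad activity, which went from 167 ± 10.5 to 118.5 ± 23.8 CPM (SD, n = 3). Its call held in 1 of the 6 tests with a sample left out, that without ICF replicate 3. Tgfb1, a ligand of the pathway named after its values were seen, went from 6.87 ± 0.71 to 9.45 ± 0.67 CPM (SD, n = 3), and every ICF sample lay above every control sample. Its log2 fold change was 0.46 (SE 0.10, edgeR adjusted p = 0.055), and with the block it rose (adjusted p = 0.0016).

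Neither the 16 epithelial regulators tested, such as Klf4 (-0.28, adjusted p = 0.37) and Spint2 (-0.20, adjusted p = 0.36), nor the 19 cofactors and turnover genes of the EMT factors, such as Suz12 (0.02, adjusted p = 0.95) and Kdm1a (-0.22, adjusted p = 0.081), held a called gene in edgeR. At an unadjusted p under 0.05 there were 3 higher and 2 lower in the former list, and 0 higher and 2 lower in the latter. DESeq2 called 0 higher and 1 lower in each. With the block, 3 rose and 5 fell among the regulators, and 2 rose and 3 fell among the cofactors. Of the genes named here, Klf4 (adjusted p = 5.3e-05, edgeR with the block), Spint2 (0.0050) and Kdm1a (0.00066) were among those that fell, and Suz12 was not called.

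**Figure D4:**
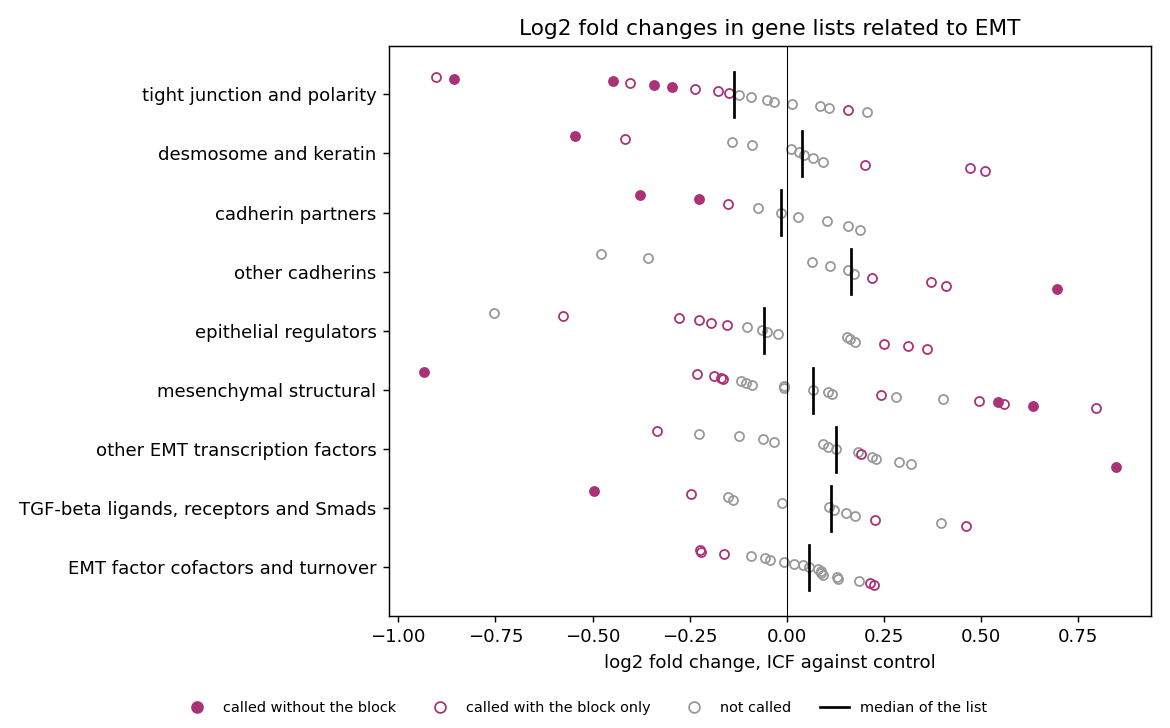
Log2 fold changes (horizontal axis, ICF against control) of the tested genes in 9 lists related to EMT, with filled circles for genes called without the block, purple open circles for those called with it alone and a black line at each list's median. The tight junction list has the lowest median (-0.14) and the other cadherins the highest (0.17), and most lists hold genes on both sides of 0.

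Of 10 markers of fibroblasts, the cell type of the feeder line, 8 were tested. The collagens Col1a1 and Col3a1 rose and 0 fell (0 fell at an unadjusted p under 0.05, and 0 with DESeq2), and with the block 3 rose and 0 fell. The median was 0.28 on the log2 scale. Their summed level was 223 to 250 CPM in control samples and 251 to 274 CPM with ICF. Most of this sum was Pdgfra, with a mean of 178 CPM in control samples and 182 CPM with ICF. The defining markers Lum and Fap had a mean under 10 counts. Col1a1 went from 15.3 ± 3.31 to 25.6 ± 2.10 CPM (SD, n = 3) and Col3a1 from 9.64 ± 2.16 to 16.0 ± 3.02 CPM (SD, n = 3). With a sample left out, the call of Col1a1 held in 3 of 6 tests and that of Col3a1 in 0 of 6, and the Col3a1 pairs differed by 0.56, 0.26 and 1.41 on the log2 scale. Pdgfra, the most abundant, was at 0.03, Thy1 at 0.07, Pdgfrb at 0.06 and Dcn at -0.12, and none of these was called with or without the block. The part of these cells in the values of Cdh2, Vim and Twist1 was not tested.

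Markers of pluripotent cells, which are known to express Cdh1 and Epcam, summed to 3928 to 4666 CPM in control samples and 3550 to 3982 CPM with ICF. Of 11 tested, 1 fell and 0 rose in edgeR, with a median of -0.12. At an unadjusted p under 0.05, 3 fell and 0 rose, and DESeq2 called 2 lower and 0 higher. The one that fell was Tdgf1, a co-receptor of Nodal, at -0.81 on the log2 scale, with means of 722 CPM in control samples and 411 CPM with ICF. The most abundant, Pou5f1 and Dppa5a, had log2 fold changes of -0.04 and -0.29 and were not called. The rest, named after their values were seen, were not called either. Sox2 was at 0.02, Tfcp2l1 and Dppa4 at 0.01, and Esrrb at -0.01. Nanog was at -0.12, Fgf4 at -0.13, Zfp42 at -0.14 and Utf1 at -0.23. With the block 4 fell and 0 rose, and Dppa5a was among them (adjusted p = 1.2e-05). Endoderm markers, another source of epithelial transcripts, summed to 1861 to 2505 CPM in control samples and 2113 to 2524 CPM with ICF, and 2 of 11 fell, Sox17 (-0.34) and Amn (-0.44). With a sample left out these calls held in 1 and 4 of 6 tests. With the block 4 rose and 3 fell, and the most abundant, Cubn (0.15) and Dab2 (0.25), were called higher only then (adjusted p of 0.019 and 9.7e-05). Whether shifts between these cell types contributed to the fall of Epcam was not tested.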

How the data were processed

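RNA sequencing was analysed in 3 ICF and 3 control samples. The authors filtered the reads on quality, mapped them with HISAT2 and counted them with HTSeq, and deposited gene counts, which are whole numbers, of every sample. Versions of these tools are not given in the sources used here. Whether counting used the strand is not given in the sources used here. HTSeq drops reads that map to several places, and 38.1% to 40.3% of reads stood in entries that name no gene and were left out. The submitters' processing notes list the builds hg38 and GRCm38. Gene names, positions and exon lengths came from GENCODE M21 (GRCm38).

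The counts were fitted with edgeR 4.0.16 in R 4.3.3 (filterByExpr, TMM, glmQLFit and glmQLFTest), with Benjamini-Hochberg adjustment over 16729 genes. CPM values use the TMM factors of this fit, and standard errors come from the SDs of log2 CPM (prior count 0.5). The labels use the same donor numbers in both groups, and samples with the same number were treated as pairs in the blocked fit. The labels do not state that such samples share a line, culture or experiment, so calls made only with the block rest on this assumption. Across genes, the deviations from the group mean of samples with the same number had a Pearson's r of 0.13, 0.17 and 0.32, although control replicate 1 correlated better with ICF replicate 2 (0.23). Nothing states that the samples came from separate cultures beyond the donor labels and the independent experiments of the methods, so p-values measure the spread between these samples.

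The 10 genes and all lists were chosen with earlier results of these data known. All 10 genes are named, and from each related list at most 4 called genes with the largest change and a mean of at least 100 counts or, where none was called, the 2 most abundant. From each marker list the 2 most abundant genes are named, and markers beyond these were named after their values were seen. Alternatives were DESeq2 1.42.0, RLE factors, other count filters, the replicate block, left-out samples and ICF replicate 3 divided by 4. After the data were seen, the block without replicate 3 was added. The procedure was tested on simulated data. Promoter windows are from RefSeq.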

Additional observations from a re-analysis of the deposited data

How the results depend on the processing

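Of 150 values of the 10 log2 fold changes under 15 alternative settings, 128 kept their direction and their side of the threshold, 14 newly passed it, 5 (all of Epcam, each with a sample left out) no longer passed and 3 changed sign. Those 3 were Cdh1 without ICF replicate 3 (0.0040) and Zeb1 without control replicate 1 (-0.026) or ICF replicate 3 (-0.0051), all near 0 and not called. Leaving out 1 sample gave -0.12 to 0.0040 for Cdh1 and -0.026 to 0.081 for Zeb1. The median over all genes stayed within 0.01 of 0 in every setting.

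The numbers of the 10 genes called higher and lower, 0 and 1 in the unpaired fit, were 3 and 2 with the replicate block, 1 and 2 with the replicate block in DESeq2, 1 and 2 with at least 1 count in any sample, 1 and 2 without replicate 3 of both groups, and 1 and 2 with the block and without replicate 3. With each sample left out in turn they ranged from 0 to 1 and from 0 to 2. Over all genes, 580 higher and 733 lower became 2445 and 2561 with the block, 1354 and 1666 with the block in DESeq2, 2466 and 2627 without replicate 3 of both groups, and 2162 and 2359 with the block and without replicate 3, and DESeq2 called 877 higher and 1071 lower. Leaving out 1 sample gave 85 to 724 higher and 215 to 928 lower, with 85 and 215 without control replicate 2, 109 and 251 without control replicate 1, 181 and 290 without ICF replicate 1, and 232 and 349 without ICF replicate 2. The cause was not tested. Snai2 and Zeb2 had the lowest means, 57.3 and 109.5 counts.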

Other observations

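The primitive streak, mesoderm and neural crest are lineages that pass through or arise by EMT in the embryo. Of 7 tested genes of the primitive streak and mesoderm, 0 were called in edgeR (1 lower at an unadjusted p under 0.05, and 0 with DESeq2), with a median of -0.18 on the log2 scale, and T and Mesp1 had means under 10 counts. With the block 3 fell and 0 rose, namely Tbx6 (-0.89, adjusted p = 0.031), Eomes (-0.21, adjusted p = 0.021) and Tcf15 (-0.22, adjusted p = 0.0033), and Hand1 was at -0.12. Of 4 tested neural crest genes, 0 were called (1 higher at an unadjusted p under 0.05, and 0 with DESeq2), and the defining markers Sox10 and Tfap2b had means under 10 counts. The summed level of the list was 62.6 to 63.6 CPM in the control and 65.1 to 67.1 CPM with ICF. Most of it came from the most abundant, Foxd3 and Ets1, which were at -0.03 and 0.23 on the log2 scale. Foxd3 had a mean of 36.3 CPM in the control and 35.6 CPM with ICF, and Ets1 of 22.5 and 26.5 CPM. With the block Ets1 was called higher (adjusted p = 0.016).

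Of the neural markers, 1 rose and 1 fell, and with the block 3 rose and 2 fell. Neurod1, a proneural transcription factor, went from 1.82 ± 0.27 to 4.64 ± 0.76 CPM (SD, n = 3), or by 1.35 on the log2 scale, and Elavl3, a neuronal RNA-binding protein, from 28.1 ± 6.54 to 11.2 ± 5.06 CPM (SD, n = 3), or by -1.32. With a sample left out, the call of Neurod1 held in 6 of 6 tests and that of Elavl3 in 2 of 6. The other 8 of the 10 tested, among them the most abundant, Tubb3 (-0.23) and Olig2 (-0.05), were not called without the block, and the median of the list was 0.00.

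Of 4 tested endothelial or blood markers, 0 were called in edgeR (1 higher at an unadjusted p under 0.05, and 1 with DESeq2), with Pecam1 at 0.08 and Cdh5 at 0.37 on the log2 scale, and with the block Cdh5 was called higher (adjusted p = 0.00029). Of 4 tested surface ectoderm or trophectoderm markers, 0 were called in edgeR (0 at an unadjusted p under 0.05, and 0 with DESeq2), with Tfap2c at 0.16 and Gata3 at -0.10, and with the block Tfap2c was called higher (adjusted p = 0.044).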
